A study of Homo sapiens with 18 samples.

Results

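CDKN1A, MDM2, GDF15, ZMAT3, SESN1, TP53INP1, BTG2, FAS and RRM2B are genes that the tumour suppressor p53 is known to activate by binding near them. They were taken by symbol from a table of expression values for 26372 genes. Each of the 9 was listed once and passed the filter on low values, a mean of at least 1 over all libraries, as did 13785 genes in all. They were chosen as known p53 targets and not by a threshold on their values, but with earlier results of these data known.

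The study used SH-SY5Y, an established human neuroblastoma line that responds to retinoic acid by taking on neuronal features. Cells were infected with lentivirus made from the FUGW plasmid, a vector in which the ubiquitin C promoter is known to drive expression in most cell types. Whether that promoter was kept is not given in the sources used here. The virus carried ZNHIT3 as wild type (ZNHIT3-WT), with a substitution (ZNHIT3-C14R) or with a deletion. ZNHIT3 is a zinc finger protein that helps to assemble small nucleolar ribonucleoproteins. The deletion is labelled ZNHIT3-∆251-254 in replicate 1, 251-255 in replicate 2 and 251-256 in replicate 3, and the titles call the same libraries Depleted. They were grouped by those titles and are called the deletion here. Apart from that word in the titles, no removal of the cells' own ZNHIT3 is described in the sources used here, and whether any group lost it was not tested.

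RNA from each construct was sequenced at day 0 and at day 18, with 3 libraries in each of 6 groups and 18 in all. The medium for differentiation was serum-free neurobasal with B27 and held 10 µM retinoic acid, 50 ng/ml BDNF, 2 mM dibutyryl cyclic AMP and 20 mM KCl. It was first given 48 hours after infection to cells kept until then in MEM with serum. Day, serum, the added agents and the time since infection therefore changed together, and their effects cannot be told apart. There was no uninfected or empty-vector group among the samples used here. Replicates are not described as separate cultures, so the p-values below measure the spread between these libraries, which may be technical. Values are FPKM, fragment counts divided by transcript length and by the number of mapped fragments, so they can be set side by side between genes.

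p53 is a transcription factor that is kept low in unstressed cells because MDM2 marks it for breakdown. When DNA damage, nucleolar stress or other signals release it, it raises genes that stop the cell cycle, repair DNA, limit growth or start cell death, and MDM2 itself, which closes the loop. SH-SY5Y cells are known to carry wild-type p53, and in neural cells the pathway is studied for its part in both withdrawal from the cycle and neuronal death. p53 binds as a tetramer to DNA that holds a pair of 10-base half-sites, each with the core CNNG.

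The half-site was searched for in windows of 300 bases around RefSeq start sites on GRCh38.p14, from 250 bases before each start to 50 after it. The promoter table held 7 of the 9 genes in 15 windows, and TP53INP1 and RRM2B were not matched. The consensus half-site reads the same on both strands, so one search covers both. An exact half-site occurred in 6.63% of all 35116 windows, a half-site with at most 1 mismatch outside the core in 45.12%, and a pair of the latter with at most 13 bases between them in 1.84%. Among the 15 windows, 2 held an exact half-site, 11 held one with at most 1 mismatch and 2 held a pair. The 11 are not separate cases, because overlapping windows of MDM2 and of FAS hold the same half-sites. Both windows with the pair belong to the inner starts of MDM2, which lie 7 bases apart, and they hold the same pair.

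The stretches below are those that hold the pair or an exact half-site, with CDKN1A for comparison because it fell most by day 18 on the log2(FPKM + 1) scale. They read 5′ to 3′ on the gene's own strand, and capitals mark the pair or the exact half-site. Stretches were limited to bases outside annotated untranslated exons, or to 30 bases where the half-site lies in one.
MDM2 (chr12:68808852-68809001, plus strand): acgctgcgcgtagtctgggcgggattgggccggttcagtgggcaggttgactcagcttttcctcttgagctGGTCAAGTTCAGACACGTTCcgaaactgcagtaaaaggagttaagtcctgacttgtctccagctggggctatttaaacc
SESN1 (chr6:109008989-109009138, minus strand): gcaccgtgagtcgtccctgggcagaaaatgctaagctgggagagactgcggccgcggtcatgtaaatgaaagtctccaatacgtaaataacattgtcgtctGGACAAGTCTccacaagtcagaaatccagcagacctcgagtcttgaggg
FAS (chr10:88991299-88991328, plus strand): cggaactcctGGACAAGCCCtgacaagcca
CDKN1A (chr6:36678508-36678657, plus strand): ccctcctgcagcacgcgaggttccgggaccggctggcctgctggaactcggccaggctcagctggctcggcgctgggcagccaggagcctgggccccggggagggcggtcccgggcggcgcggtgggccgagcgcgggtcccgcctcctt
In MDM2 the half-sites adjoin each other, with 0 bases between them, and the first begins 94 bases before the start site of its window. The exact half-site begins 49 bases before a start inside SESN1 and 122 bases before a start inside FAS. The CDKN1A window held none at either stringency, which says only that these letters are not in that window. A match describes the letters and not binding, which was not measured here.

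The libraries differed in other ways that bear on the values below. Absolute depth is unknown, and the steps between low values put the relative depth of the day 0 libraries at 59.1% to 84.5% of the deepest library and that of day 18 at 81.9% to 100%. Small RNA genes took 55.0% to 80.1% of the FPKM sum at day 0 and 31.4% to 60.5% at day 18. The first principal component, which separated the days, held 86.9% of the variance. C14R replicate 1 at day 18 stood apart on the second, at 24.8 against -8.27 to 9.27 for the other libraries. ZNHIT3 averaged 538 FPKM with WT, 424 with C14R and 302.5 with the deletion at day 0, and 1153, 653 and 301.5 at day 18. These values do not separate the RNA of the constructs from that of the cells' own gene. Of 9 markers of sympathetic neuroblasts, TH, the enzyme that starts catecholamine synthesis, averaged under 1 FPKM in all groups. In WT the 9 summed to 883 to 914 FPKM at day 0 and 1188 to 1309 at day 18. Of the 8 tested, 3 rose and 3 fell with WT, where 38.2% of all tested genes rose and 34% fell. The markers of differentiated neurons rose in 8 of 8 cases with WT, with summed levels of 907 to 917 FPKM at day 0 and 1931 to 1960 at day 18.

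All 9 p53 target genes were lower at day 18 than at day 0, with each of the 3 constructs. In WT the difference ranged from -0.63 for BTG2 to -2.75 for CDKN1A on the log2(FPKM + 1) scale. Every day 0 library lay above every day 18 library for each of the 9 genes. The lowest day 0 value was 1.38 times the highest day 18 value for BTG2, the narrowest gap, and 5.79 times for CDKN1A, the widest. Each of the 27 falls passed limma's test, with Benjamini-Hochberg adjustment over all tested genes and a threshold of 0.05. The share of all tested genes that were lower by the same test was 34% with WT, 35% with C14R and 34.4% with the deletion. A fall of at least 1 on the log2 scale was met by 6 of the 9 with each construct (CDKN1A, MDM2, GDF15, ZMAT3, SESN1 and FAS), against 6.79%, 6.64% and 6.74% of all genes. The median over the 9 genes was -1.30 with WT, -1.40 with C14R and -1.51 with the deletion, beside medians over all genes of 0.03, 0.02 and 0.03. In bulk RNA, fewer cells that express a gene and less of its RNA per cell cannot be told apart.

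**Figure D1:**
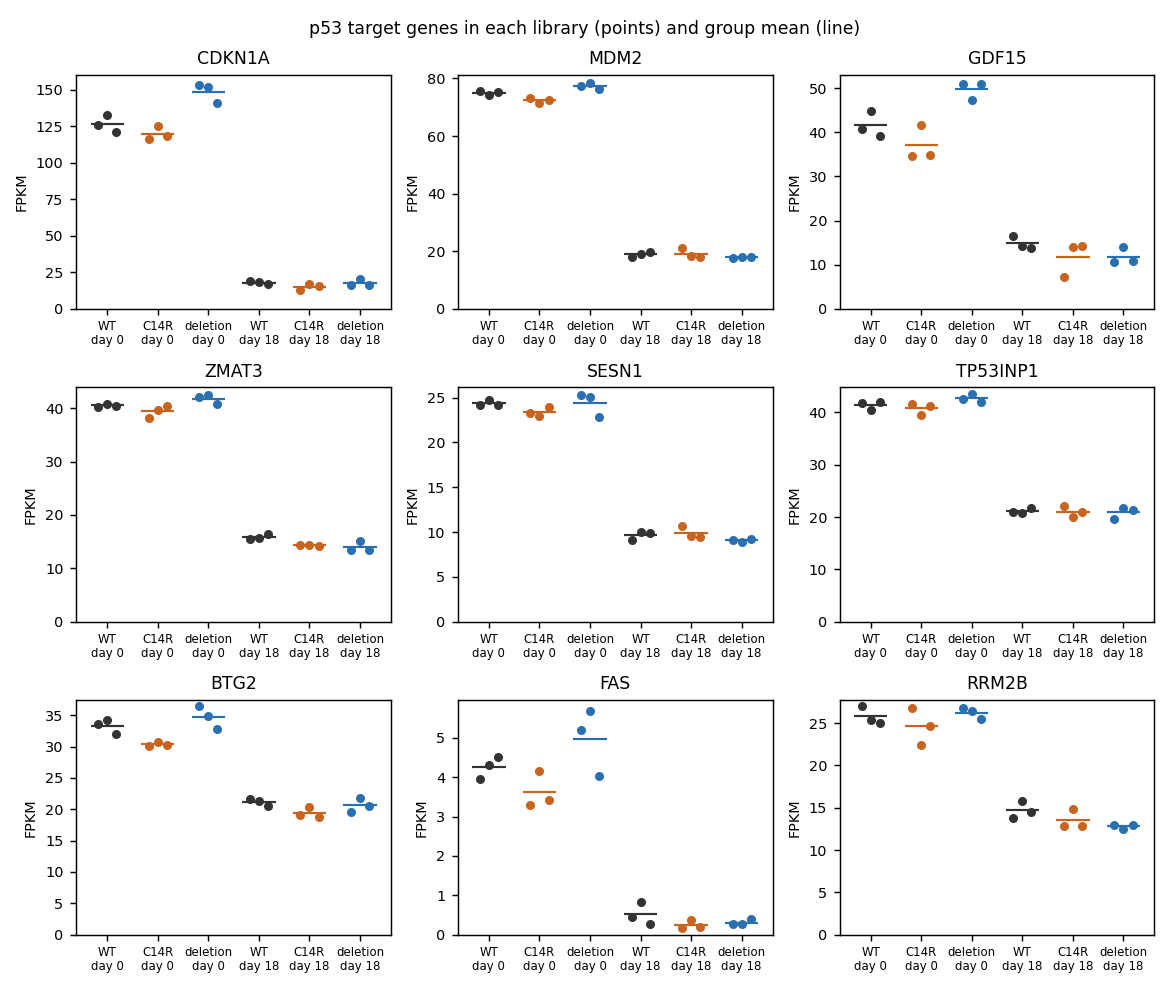
FPKM (vertical axes, from 0) of each of the 9 p53 target genes in the 18 libraries, with 1 panel per gene; points are libraries and lines are means of the 3 libraries of a group, in the order WT, C14R and deletion at day 0 and then at day 18. In every panel the 9 points of day 0 lie above the 9 points of day 18. As a ratio of the lowest day 0 to the highest day 18 value, the gap was widest for CDKN1A (5.79) and narrowest for BTG2 (1.38).

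CDKN1A (chr6:36676460-36687339, plus strand) encodes p21, the inhibitor of cyclin-dependent kinases through which p53 halts the cell cycle. At day 0 it stood at 126, 133 and 121 FPKM with WT, 116, 125 and 118 with C14R and 153, 152 and 141 with the deletion. At day 18 it stood at 19.0, 18.1 and 16.8 FPKM with WT, 12.9, 17.2 and 15.5 with C14R and 16.2, 20.1 and 16.1 with the deletion. It was the most abundant of the 9 genes in every library of day 0, whereas at day 18 TP53INP1 or BTG2 was. The WT mean went from 127 ± 5.62 to 18.0 ± 1.13 FPKM (SD, n = 3), 7.05-fold lower, and the fall was 7.89-fold with C14R and 8.50-fold with the deletion. On the log2 scale the WT change was -2.75 ± 0.09 (SE; limma adjusted p = 1.9e-14). Its exons share 146 bases with DINOL, a noncoding RNA on the other strand that has no row of its own in the table, and use of strand in the counting is not given in the sources used here.

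BTG2 (chr1:203305491-203309602, plus strand) encodes an antiproliferative protein that recruits the deadenylase complex to mRNAs and is known for its expression in neural progenitors committed to making neurons. Its 9 libraries of day 0 ran from 30.1 through a median of 32.9 to 36.5 FPKM, and those of day 18 ran from 18.7 through a median of 20.5 to 21.8 FPKM. This was the smallest fall of the 9, 1.57-fold in WT, or -0.63 ± 0.05 (SE; limma adjusted p = 3.0e-09).

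MDM2 (chr12:68808176-68850686, plus strand) encodes the ubiquitin ligase that limits p53, and it carries the paired half-sites printed above. At day 0 it stood at 75.7, 74.3 and 75.2 FPKM with WT, 73.2, 71.4 and 72.6 with C14R and 77.3, 78.3 and 76.4 with the deletion. At day 18 it stood at 18.0, 19.1 and 19.7 FPKM with WT, 21.2, 18.3 and 17.8 with C14R and 17.5, 18.1 and 17.9 with the deletion. WT replicates were close to each other, with a mean of 75.0 ± 0.734 FPKM at day 0 and 18.9 ± 0.847 at day 18 (SD, n = 3). The spread was wider with C14R at day 18 (19.1 ± 1.80 FPKM), where replicate 1 was the highest library of that day. The WT fall was 3.97-fold, or -1.93 ± 0.05 on the log2 scale (SE; limma adjusted p = 1.1e-15). On the other strand MDM2 shares 785 exonic bases (5.91%) with the antisense gene AC025423.4 and 133 with CPM, and on its own strand 439 with the pseudogene AC025423.2. Of these CPM has a row in the table, and it averaged 0.280 FPKM at day 0 and 0.0474 at day 18 in WT.

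GDF15 (chr19:18374731-18389176, plus strand) encodes a secreted cytokine of the TGF-beta family that acts on the brainstem receptor GFRAL. At day 0 it stood at 40.8, 44.9 and 39.2 FPKM with WT, 34.5, 41.7 and 34.9 with C14R and 50.9, 47.4 and 50.9 with the deletion. At day 18 it stood at 16.4, 14.3 and 13.9 FPKM with WT, 7.18, 14.1 and 14.2 with C14R and 10.7, 14.03 and 10.8 with the deletion. The day 18 value of C14R replicate 1 was the lowest of that day, and the other libraries lay between 10.7 and 16.4 FPKM. GDF15 had the widest spread of the 9 genes relative to its change: the WT change was -1.43 ± 0.17 on the log2 scale (SE; limma adjusted p = 8.7e-07). With C14R the change was -1.62, and -1.32 without that library. The GFRAL gene was listed at a mean of 0.0130 FPKM in WT at day 0 and at 0 at day 18.

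FAS (chr10:88990582-89015785, plus strand) encodes a death receptor of the TNF receptor family. At day 0 it stood at 3.96, 4.30 and 4.53 FPKM with WT, 3.30, 4.15 and 3.41 with C14R and 5.21, 5.68 and 4.03 with the deletion. At day 18 it stood at 0.451, 0.838 and 0.258 FPKM with WT, 0.171, 0.365 and 0.203 with C14R and 0.257, 0.265 and 0.385 with the deletion. It was the least abundant of the 9 genes, and all 9 libraries of day 18 were under 1 FPKM. The means were 8.27-fold lower at day 18 with WT, 14.7-fold with C14R and 16.5-fold with the deletion, each a larger ratio than for CDKN1A. At such levels the log2(FPKM + 1) scale understates the change, which was -1.81 ± 0.13 in WT (SE; limma adjusted p = 1.3e-09), and -2.93 with a pseudocount of 0.1. FAS shares 380 exonic bases, 8.93% of its exonic length, with ACTA2 on the other strand, and the FAS half-site printed above lies in an ACTA2 exon. ACTA2, a smooth muscle actin, went from 61.6 ± 0.853 to 1.93 ± 0.392 FPKM in WT (SD, n = 3). Its part in the FAS values was not tested. FASLG, the ligand of FAS, was listed at 0 in WT on both days.

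TP53INP1 (chr8:94925972-94949411, minus strand) encodes a stress protein that promotes p53 phosphorylation, autophagy and cell death. Its libraries ran from 39.5 through a median of 41.7 to 43.6 FPKM at day 0 and from 19.7 through a median of 20.97 to 22.0 FPKM at day 18. The WT change was -0.93 ± 0.04 on the log2 scale (SE; limma adjusted p = 4.1e-12), 1.95-fold lower.

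ZMAT3 (chr3:179017223-179072279, minus strand) encodes a zinc finger protein that binds RNA and regulates splicing and mRNA stability. It ran from 38.2 through a median of 40.5 to 42.4 FPKM at day 0 and from 13.5 through a median of 14.4 to 16.4 FPKM at day 18, and the WT change was -1.30 ± 0.04 (SE; limma adjusted p = 4.2e-14). SESN1 (chr6:108986437-109094819, minus strand) encodes sestrin 1, which restrains mTORC1. It ran from 22.8 through a median of 24.2 to 25.3 FPKM at day 0 and from 8.90 through a median of 9.41 to 10.7 FPKM at day 18, and the WT change was -1.25 ± 0.05 (SE; limma adjusted p = 9.1e-13). RRM2B (chr8:102204502-102239118, minus strand) encodes p53R2, the small subunit of ribonucleotide reductase that makes deoxynucleotides for repair and for mitochondrial DNA outside S phase. It ran from 22.5 through a median of 25.5 to 27.0 FPKM at day 0 and from 12.5 through a median of 13 to 15.8 FPKM at day 18, and the WT change was -0.77 ± 0.07 (SE; limma adjusted p = 1.1e-08). The days did not overlap for any of these 3 genes. SESN1 shares 363 exonic bases (7.09%) with the antisense gene AL390208.1, which has no row in the table. All coordinates of genes are those of GENCODE release 29 on GRCh38.

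**Figure D2:**
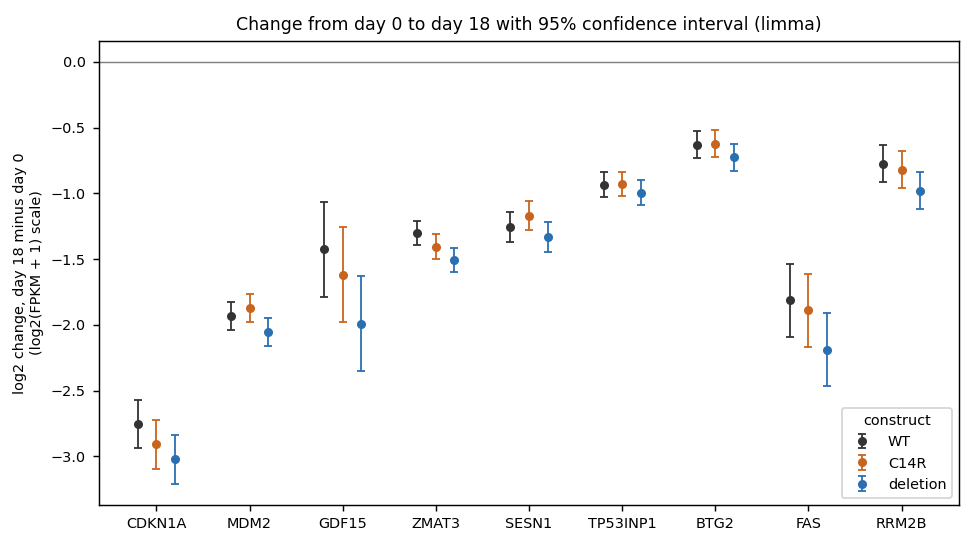
Change from day 0 to day 18 (vertical axis, log2(FPKM + 1) scale) of the 9 p53 target genes (horizontal axis) for the 3 constructs; points are differences of means of 3 libraries each and bars are 95% confidence intervals from limma. All 27 points and their intervals lie below 0, from -0.62 for BTG2 with C14R to -3.02 for CDKN1A with the deletion.

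Settings that rescale the libraries moved the size of the falls but none of these calls. Leaving out the small RNA genes and rescaling shifted the median of all genes to 0.21 in WT, 0.18 in C14R and 0.22 in the deletion. The WT changes of the 9 genes then ran from -2.55 to -0.43, and all 9 still passed with each construct. Markers of the flat, substrate-adherent (S-type, mesenchymal) cells known from neuroblastoma cultures moved with the same comparison. The summed level of 10 such markers was 1103 to 1113 FPKM at day 0 and 182 to 188 at day 18 with WT. With C14R it was 1058 to 1090 and 172 to 181 FPKM, and with the deletion 1170 to 1232 and 167 to 174 FPKM. In WT 8 of the 8 tested markers fell, against 34% of all tested genes. Of the 10, 1 (PRRX1) was at 0 in all 3 WT libraries of day 18. Markers of Schwann or glial cells summed to 3.42 to 4.13 FPKM at day 0 and 9.89 to 10.5 at day 18 in WT. The part of these cells in the falls was not tested.

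Among 12 tested genes of the p53 family and its regulators, 7 fell and 3 rose in WT, where 34% of all tested genes fell and 38.2% rose. CHEK1 and CHEK2, the checkpoint kinases that signal DNA damage to p53, fell by 1.02 and 0.85 on the log2(FPKM + 1) scale, which is used for all the changes that follow. MDM4, the partner of MDM2, fell by 0.54 (limma adjusted p = 1.0e-07). TP53BP1, a DNA repair scaffold, rose by 0.82, and the deacetylase SIRT1 and the kinase HIPK2 rose by 0.19 and 0.13. With small RNA genes left out and rescaling, 4 genes of this list fell and 4 rose in WT.

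Other genes known as p53 targets were compared in 4 lists arranged by role. Of 44 listed, 41 were tested. In WT 33 of them fell and 5 rose, and 3 did not pass, with a median of -1.05 and 21 lower by at least 1. The background for a fall was 34% of all genes with WT, 35% with C14R and 34.4% with the deletion. For a fall of at least 1 with WT it was 6.79%. The background for a rise was 38.2% of all genes with WT, 37.9% with C14R and 38.6% with the deletion. The same shares are the background for the 4 lists by role that follow. With C14R 33 fell and 4 rose, and with the deletion 34 fell and 3 rose.

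Of the arrest and feedback genes all 9 tested fell in WT, with a median of -0.70. They were led by PHLDA3, an inhibitor of AKT, at -1.68, GADD45A, a DNA damage sensor, at -1.44 and PPM1D, a phosphatase that switches p53 signalling off, at -1.33. Leaving out small RNA genes with rescaling left 7 of these 9 calls.

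Of the cell death genes 10 of 11 fell, with a median of -1.33, and with small RNA genes left out and rescaling 9 fell and 1, APAF1, rose (0.19). AEN, an apoptosis-enhancing nuclease, fell by 2.37 (25.5 ± 0.794 to 4.12 ± 0.415 FPKM). BBC3, which encodes the BH3-only protein PUMA, fell by 1.94 (10.3 ± 2.32 to 1.94 ± 0.530 FPKM). SPATA18, a mitochondrial quality factor, fell by 1.73. APAF1, the apoptosome scaffold, did not pass without that rescaling and stood at 9.04 and 9.03 FPKM.

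Of the repair and metabolism genes 7 of 10 fell and 2 rose. FDXR, a mitochondrial reductase, fell by 1.81, PCNA, the replication clamp, by 1.52 and DDB2, a sensor of UV damage, by 1.44. GLS2, the liver-type glutaminase, rose by 0.54 and SAT1, which acetylates polyamines, by 0.34. SAT1 did not pass with C14R (0.09, limma adjusted p = 0.50) or with the deletion (0.06, limma adjusted p = 0.63).

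Of the targets with other roles 7 of 11 fell and 3 rose. RPS27L, a ribosomal protein paralogue, fell by 1.93 (118 ± 3.34 to 30.2 ± 1.61 FPKM). EDA2R, a TNF receptor family member, fell by 1.85 and ASCC3, a helicase, by 1.54. SULF2, a heparan sulfatase, rose by 0.96, CYFIP2, an actin regulator of neurons, by 0.62, and ANKRA2 by 0.32.

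**Figure D3:**
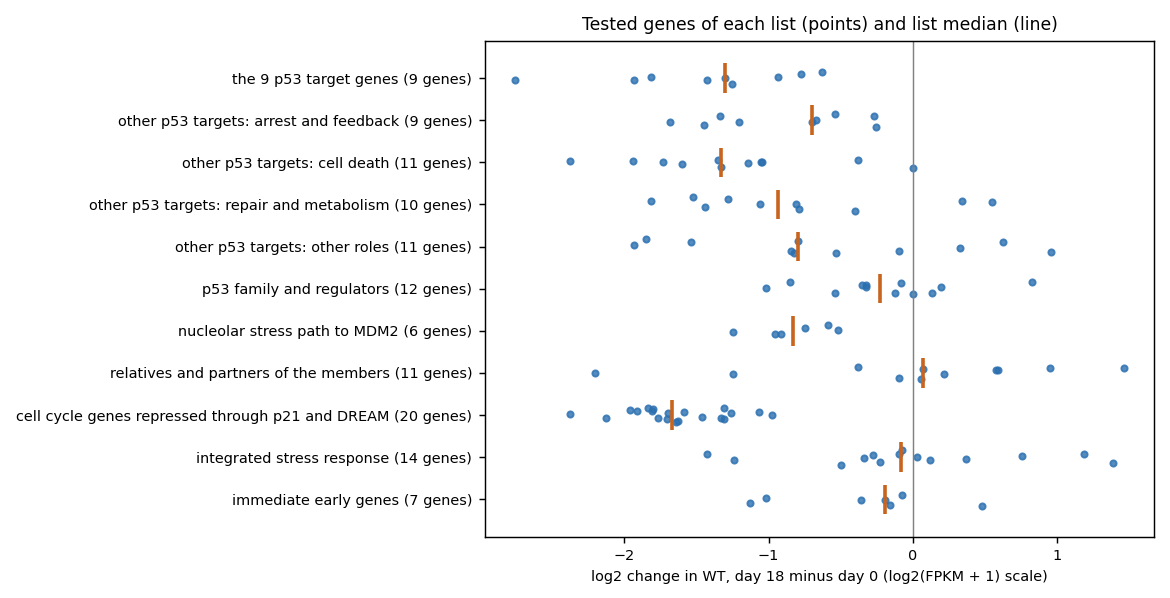
Change from day 0 to day 18 in WT (horizontal axis, log2(FPKM + 1) scale) of the tested genes in each list (rows); points are genes, spread vertically only to keep them apart, and vertical lines are list medians. The 9 p53 target genes have a median of -1.30 and the cell cycle genes -1.67, while the relatives and partners of the 9 genes centre near 0 (0.07).

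Relatives of the 9 genes that are less known as p53 targets moved both ways. Of 11 tested relatives and partners, 5 rose and 3 fell in WT, where 38.2% of all tested genes rose and 34% fell. TP53INP2, the paralogue of TP53INP1, rose by 1.46 (11.6 ± 0.112 to 33.7 ± 0.550 FPKM) while TP53INP1 fell. SESN3, a sestrin driven by FOXO factors, rose by 0.95 (22.4 ± 0.826 to 44.1 ± 1.72 FPKM), and SESN1 fell. CDKN1C, the inhibitor p57, rose by 0.59, and CDKN1B, the inhibitor p27, named after its values were seen, rose by 0.57 (27.1 ± 0.271 to 40.8 ± 0.650 FPKM). In WT, p21 RNA was thus the most abundant of these 3 inhibitors at day 0, and p27 RNA at day 18. RRM2, the S-phase partner that RRM2B replaces outside S phase, fell from 51.8 ± 2.33 to 10.5 ± 0.380 FPKM, and RRM1, the large subunit, fell by 1.25 on the log2 scale. RRM2B stood below RRM2 at day 0 (25.8 ± 1.04 FPKM) and above it at day 18 (14.7 ± 1.04). TOB1, of the same family as BTG2, fell by 0.38.

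Genes of the cell cycle that are repressed when p21 rises, through the DREAM complex, fell in 20 of 20 cases with each construct. Of all tested genes 34% fell with WT, 35% with C14R and 34.4% with the deletion. The median of the list in WT was -1.67, and the list was led by CDC20 at -2.37, CCNB2 at -2.12 and UBE2C at -1.96. CDKN1A and these genes were both lower at day 18. The 6 tested genes of the nucleolar route to MDM2, by which free ribosomal proteins bind MDM2, fell in WT, against the same 34%. The 6 genes were led by GNL3 at -1.25, NPM1 at -0.95 and RPL11 at -0.91. With quantile normalization these were -1.24, -0.55 and -0.24, and RPL23 was at 0.04, so that 5 of the 6 passed in WT and 3 of the 6 with C14R.

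The 18 libraries fall into the 2 days, so any gene that differs between days follows the 9 genes across them. Within day 0, Pearson's r over the 9 libraries was above 0 for all 36 pairs of the 9 genes, from 0.15 for GDF15 and RRM2B to 0.92 for CDKN1A and GDF15, with a median of 0.71. Within day 18 it was above 0 for 25 of the 36 pairs, from -0.68 for CDKN1A and SESN1 to 0.92 for MDM2 and SESN1, with a median of 0.35. C14R replicate 1, which stood apart on the second principal component, enters the day 18 values. Of that day it had the lowest CDKN1A (12.9 FPKM) and GDF15 (7.18) and the highest MDM2 (21.2), SESN1 (10.7) and TP53INP1 (22.0). The r without that library are not given here. The r of both days are descriptions over libraries of 3 constructs that share their depth and composition. At day 0 the 9 genes also had the same order of construct means in FPKM, given below, which enters these r. The share of positive pairs over all tested genes is not given here. The genes nearest to CDKN1A over all tested genes were AEN (r = 0.999) and FLNA (0.998), and 2016 genes had an r above 0.95. Nearest to MDM2 were CALD1 and EEF1B2, to GDF15 P4HB and MRPL4, and to ZMAT3 CRIM1 and PRKCA. Nearest to SESN1 were CALD1 and PSD3, to TP53INP1 LOX and HNRNPK, and to BTG2 LTBP2 and MAN1A1. Nearest to FAS were AJUBA and HGF, and to RRM2B TEX10 and RDH10. The r of these nearest genes lay between 0.989 and 0.999.

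Between constructs, differences within a day among the 9 genes reached -0.42 (GDF15, C14R against the deletion at day 0) on the log2(FPKM + 1) scale. None passed limma's test in any of the 6 comparisons of constructs within a day or in the 2 tests of whether a variant changed the day effect. The share of all tested genes that passed was 0% for C14R against WT at day 0, 0.029% for the deletion against WT at day 0 and 0.058% for C14R against the deletion at day 0. At day 18 it was 0.0363%, 0.0725% and 0.029% in the same order. For the change of the day effect it was 0% for C14R and 0.0145% for the deletion. Genes among the 9 with an unadjusted p under 0.05 numbered 1, 1 and 4 in the day 0 comparisons, and 388, 857 and 1357 of all genes had one. At day 18 they numbered 3, 2 and 1, beside 1535, 1576 and 1539 of all genes. For the day effect they numbered 0 with C14R and 4 with the deletion, beside 790 and 1014. The comparisons of C14R and of the deletion with WT share the WT libraries and are not independent of each other.

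**Figure D4:**
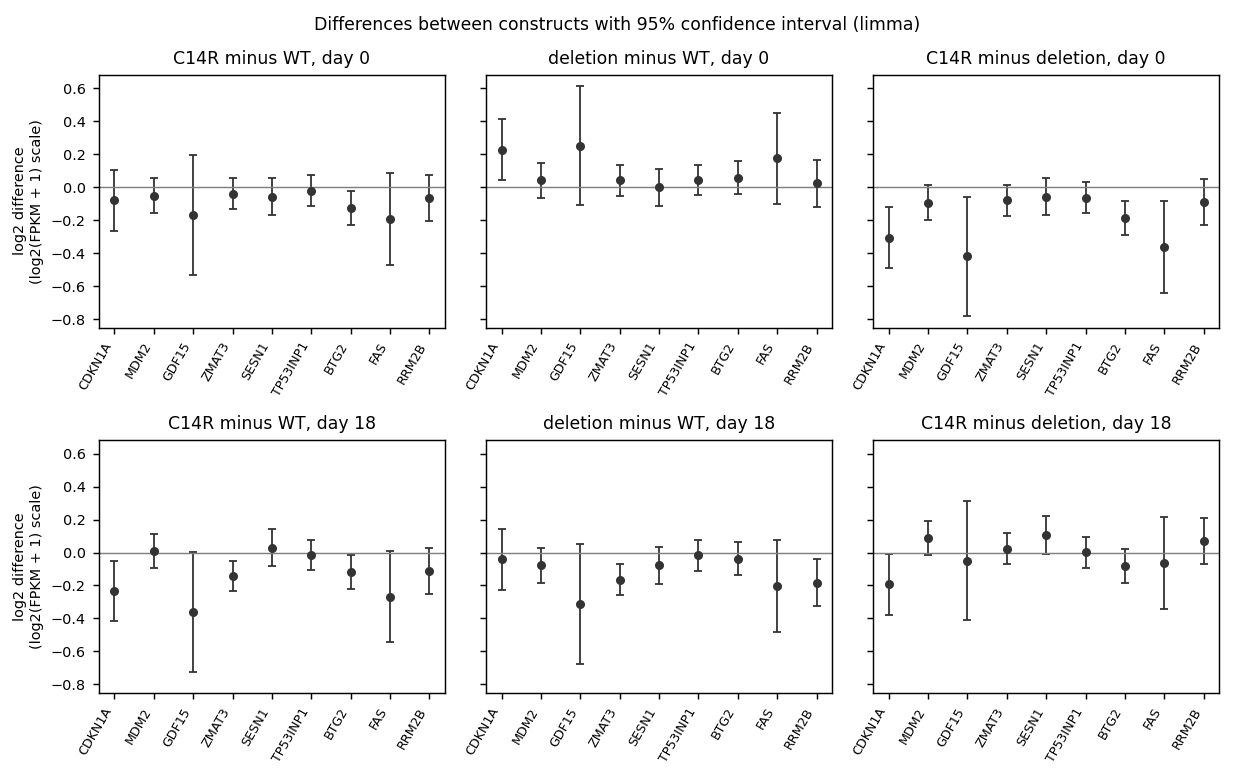
Differences between constructs (vertical axes, log2(FPKM + 1) scale) of the 9 p53 target genes (horizontal axes) at day 0 (top) and day 18 (bottom); points are differences of means of 3 libraries each and bars are 95% confidence intervals from limma. No gene passed the adjusted threshold in any panel, and the intervals are widest for GDF15 (0.36 to either side).

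At day 0 the mean FPKM of each of the 9 genes was highest with the deletion, then WT, then C14R, an order that 22.8% of all tested genes had. For SESN1 the deletion and WT means were both 24.4 FPKM. On the log2(FPKM + 1) scale the SESN1 difference had the other sign, at -0.0001. CDKN1A averaged 149 ± 6.83 FPKM with the deletion, 127 ± 5.62 with WT and 119.9 ± 4.78 with C14R (SD, n = 3). The deletion stood at 117% of WT, a difference of 0.23 (95% confidence interval 0.04 to 0.41; limma adjusted p = 0.77), and C14R stood at 80.7% of the deletion, a difference of -0.31 (-0.49 to -0.12; adjusted p = 0.27). With weights per library the last of these passed, at -0.31 and an adjusted p of 0.047 in limma. GDF15 differed by -0.42 between C14R and the deletion (-0.78 to -0.06) and BTG2 by -0.19 (-0.29 to -0.08), with limma adjusted p of 0.44 and 0.23. FAS differed by -0.37 in the same comparison (-0.64 to -0.09; limma adjusted p = 0.37).

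Libraries of C14R and the deletion did not overlap at day 0 for 6 of the 9 genes (CDKN1A, MDM2, GDF15, ZMAT3, TP53INP1 and BTG2), all lower with C14R, and 10.7% of all genes were so separated in that direction. The deletion lay above WT without overlap for CDKN1A, MDM2 and GDF15, against 8.68% of all genes. C14R lay below WT without overlap for MDM2, SESN1 and BTG2, against 5.33%. For the other neighbours in that order the libraries overlapped. Summed markers of S-type cells had the same order at day 0, at 1170 to 1232 FPKM with the deletion, 1103 to 1113 with WT and 1058 to 1090 with C14R. ACTA2 averaged 72.7, 61.6 and 54.6 FPKM. The part of either in these differences was not tested.

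At day 18 WT had the highest mean for 7 of the 9 genes, and C14R for MDM2 and SESN1. In both of these C14R replicate 1 was the highest library, and without it the C14R difference from WT turned from 0.01 to -0.06 for MDM2 and from 0.03 to -0.02 for SESN1. WT was highest for 30.8% of all tested genes. ZMAT3 stood at 15.4, 15.8 and 16.4 FPKM with WT, 14.4, 14.3 and 14.2 with C14R and 13.5, 15.2 and 13.5 with the deletion, so that both variants lay below every WT library. It differed from WT by -0.14 with C14R (-0.23 to -0.05; limma adjusted p = 0.22) and by -0.17 with the deletion (-0.26 to -0.07; limma adjusted p = 0.18). BTG2 also lay below WT without overlap with C14R, and RRM2B with the deletion. The shares of all genes so separated were 5.64% for C14R below WT and 8.53% for the deletion below WT. SESN1 with C14R lay above every deletion library, against 5.94% of all genes.

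GDF15 at day 18 averaged 79.4% of WT with C14R and 79.6% with the deletion. The differences were -0.36 (-0.72 to 0.00; limma adjusted p = 0.45) and -0.31 (-0.67 to 0.05; limma adjusted p = 0.52). Without C14R replicate 1 the first was -0.07 (limma adjusted p = 0.85). CDKN1A in C14R differed from WT by -0.23 (-0.42 to -0.05; limma adjusted p = 0.32), and by -0.13 without the same library (limma adjusted p = 0.54). MDM2 differed from WT by 0.01 with C14R (-0.09 to 0.12) and by -0.08 with the deletion (-0.18 to 0.03). FAS, under 1 FPKM in all libraries of day 18, differed from WT by -0.27 with C14R (-0.55 to 0.01), or -0.76 with a pseudocount of 0.1, and by -0.20 with the deletion (-0.48 to 0.08).

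The fall from day 0 to day 18 differed between the deletion and WT by -0.56 for GDF15 (-1.08 to -0.05), -0.27 for CDKN1A (-0.53 to -0.01) and -0.21 for ZMAT3 (-0.34 to -0.08). The limma adjusted p of these were 0.63, 0.65 and 0.42. FAS differed by -0.38 (-0.77 to 0.02, limma adjusted p = 0.70) and RRM2B by -0.21 (-0.40 to -0.01, limma adjusted p = 0.65). The difference was negative for all 9 genes, with a median of -0.21 beside 0.01 over all tested genes. The share of all tested genes with a negative difference is not given here. The 9 signs come from the same libraries and are not independent of each other. Between C14R and WT the 9 differences lay between -0.19 for GDF15 and 0.08 for SESN1, with limma adjusted p of 0.89 or more. Without C14R replicate 1 of day 18 these were 0.10 for GDF15, a turned sign, and 0.03 for SESN1. The intervals over the 9 genes reached from -0.53 to 0.19 for C14R against WT at day 0 and from -0.12 to 0.61 for the deletion against WT at day 0. At day 18 they reached from -0.72 to 0.14 and from -0.67 to 0.14. These bounds are extremes over the 9 genes, and the intervals of the other genes were narrower than those of GDF15.

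Of the 41 other p53 targets tested, 0 passed limma's test in any comparison of constructs, and 1, 3 and 8 had an unadjusted p under 0.05 at day 0 and 8, 2 and 4 at day 18. The order is C14R against WT, the deletion against WT and C14R against the deletion. In that order the shares of all tested genes were 2.81%, 6.22% and 9.84% at day 0 and 11.1%, 11.4% and 11.2% at day 18. Among the cell cycle genes, MYBL2 and HJURP were higher with C14R than with WT at day 18, by 0.32 (limma adjusted p = 0.012) and 0.35 (limma adjusted p = 0.031). Over all genes this comparison had 5 calls, and 2 when only the libraries compared were fitted. Which genes those were is not given here. The group includes C14R replicate 1, which stood apart, and the values of MYBL2 and HJURP without it are not given here.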

How the data were processed

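The authors deposited 1 table of FPKM, 1 value per gene symbol and library, with column names equal to the sample titles; samples were grouped by construct and day from those titles. Per the labels' protocols, RNA was extracted with TRIzol, ribosomal RNA was removed with Ribo-Zero and the NEBNext Ultra kit was used for library preparation. The submitters' processing notes name TopHat2, STAR, Cufflinks 2.2.1 and hg38. The role of each, the annotation and the use of strand are not given in the sources used here, so reads of overlapping genes cannot be assigned with certainty. FPKM keep no counts, so no counting interval is given.

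Values were used as log2(FPKM + 1), a scale that understates the changes of low genes. The 13785 genes with a mean FPKM of at least 1 were tested in 1 fit of 6 group means with limma 3.58.1 in R 4.3.3 (empirical Bayes moderation with a trend), with Benjamini-Hochberg adjustment over all of them within each comparison and a threshold of 0.05. The fit was tested on simulated data. The members and gene lists were chosen with earlier results of these data known. Named from the lists were genes past the threshold between constructs, up to 3 in each direction, and the 3 largest rises and falls in WT whose libraries did not overlap between days; the 2 genes with the highest Pearson's r to each member were named too. Alternatives were other pseudocounts, filters, scalings, weights and designs, the replicate number as a block, and each library left out in turn. The same replicate number is not stated to mark a shared culture or day, so the block was kept as an alternative. Over the tested genes, deviations from the group means had an r between -0.36 and 0.17 over 27 pairs of the same number. Small RNA shares at day 0 were 76.2%, 78.1% and 80.1% in replicate 1 of C14R, the deletion and WT. In the same order they were 56.2%, 55.0% and 56.2% in replicate 2, and 79.4%, 62.7% and 55.7% in replicate 3. Of the listed genes, 1 is not reported here.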

Additional observations from a re-analysis of the deposited data

How the results depend on the processing

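All 447 values of the day comparisons for the 9 genes kept their direction and stayed past limma's threshold under the alternatives tried, with adjusted p of 0.00025 or less. FAS has no value under the filter at a mean FPKM of 5, so that setting counts 8 genes. Of 894 values between constructs, 1 passed: with weights per library, CDKN1A in C14R against the deletion at day 0 (-0.31, adjusted p = 0.047), so that count went from 0 to 1. The cause was not tested. In 26 of the other values between constructs, and in 24 of the 403 for the change of the day effect, the sign differed from the reported one, without passing in either fit.

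With the replicate number as a block, the counts stayed at 9 for each day comparison and 0 for each of the others. Leaving out each library in turn gave the same counts, 9 and 0. Over all genes, counts between constructs depended more on the setting: C14R against the deletion at day 0 had 8 genes and ranged from 1 to 95, C14R against WT at day 18 had 5 and ranged from 2 to 205, and the deletion against WT at day 18 had 10 and ranged from 2 to 95. The highest of each came with weights per library. C14R against WT at day 0 ranged from 0 to 2, the deletion against WT at day 0 from 1 to 5, C14R against the deletion at day 18 from 2 to 13, and the changes of the day effect from 0 to 4 and from 1 to 6. FPKM steps give relative depth only, so no counting error can be given for low values such as FAS at day 18, which was under 1 FPKM in every library.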

Other observations

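Genes of the integrated stress response, the programme run by ATF4 that can raise GDF15 and SESN2 without p53, moved both ways from day 0 to day 18. Of 14 tested, 4 rose and 6 fell in WT (limma, adjusted over all genes), with a median of -0.09. The shares of all tested genes were 38.2% for a rise and 34% for a fall. With small RNA genes left out and rescaling, 5 of the 14 rose and 4 fell. DDIT3, which encodes the stress factor CHOP, rose from 7.72 ± 0.494 to 21.9 ± 2.59 FPKM (SD, n = 3), ATF3 from 3.61 ± 0.538 to 9.47 ± 1.18 and PPP1R15A, which ends the response, from 9.87 ± 2.14 to 17.2 ± 0.272. DDIT4, an inhibitor of mTORC1, fell by 1.43 on the log2 scale, PSAT1, of serine synthesis, by 1.24 and the chaperone HSPA5 by 0.50. SESN2 fell by 1.06 and is named here after its values were seen. At day 18 DDIT3 was lower with C14R than with WT, at 12.6 ± 1.46 against 21.9 ± 2.59 FPKM, a difference of -0.74 (limma adjusted p = 0.0011). That group includes C14R replicate 1, which stood apart on the second principal component, and the difference without it is not given here. With the deletion the difference from WT was -0.36 (limma adjusted p = 0.15).

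Immediate early genes, which BTG2 is sometimes grouped with, were low or moved both ways with WT. Of 10 listed, 7 were tested, and in WT 1 rose and 3 fell, against 38.2% and 34% of all tested genes. FOS rose by 0.48, whereas JUNB fell by 1.13, ARC by 1.02 and DUSP1 by 0.36. DUSP1 did not pass when small RNA genes were left out with rescaling. Without that rescaling, 0 of the 7 rose and 5 fell with C14R, against 37.9% and 35% of all tested genes. With the deletion 1 rose and 4 fell, against 38.6% and 34.4%.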
